A study of Mus musculus with 18 samples.

Results

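The genes described here encode the subunits of respiratory complexes II to V, in bulk RNA sequencing of mouse colon organoids. Members were the protein-coding genes of the expression table named Sdha, Sdhb, Sdhc, Sdhd or Cyc1, or with a name that starts with Uqcr, Cox4 to Cox8, Atp5, mt-Co, mt-Cytb or mt-Atp. The rule found 56 of 56748 genes, of which 50 are nuclear and 6 lie on the mitochondrial genome, and it used no measured value. Organoids are epithelial cultures grown from tissue, and these came from the distal, mid or proximal colon. Each region was kept in a differentiation medium or in the proliferative control medium (ENR with Wnt3a-conditioned medium), with the media applied after passaging, and each of the 6 groups has 3 libraries. The labels do not say whether replicates are separate animals or cultures of one animal, so the p-values measure only the spread between these libraries, which may be technical. Strain, age and sex of the mice are not given in the sources used here.

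Oxidative phosphorylation passes electrons from NADH and succinate along complexes in the inner mitochondrial membrane, and ATP synthase (complex V) uses the resulting proton gradient to make ATP. Complex II (succinate dehydrogenase) is built from nuclear genes alone, whereas complexes III, IV and V each combine nuclear subunits with subunits made from mitochondrial DNA. In the colon, surface colonocytes are known for a high oxidative metabolism fuelled by butyrate, and crypt base cells for a more glycolytic one.

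Recovered depth was 12827751 to 19938198 reads per library. The epithelial markers Epcam, Cdh1, Krt8 and Vil1 summed to 4725 to 6081 FPKM in differentiation and 1764 to 3833 FPKM in control libraries, and 20 markers of fibroblasts, immune, endothelial, muscle and neural cells summed to at most 1.73 and 3.47 FPKM. The 6 colonocyte markers summed to 13188 to 23442 FPKM in differentiation and 404 to 2274 FPKM in control libraries, and the 5 crypt stem markers to 4.63 to 18.6 FPKM and 82.1 to 155.9 FPKM. Proximal differentiation replicate 1 stood apart, with 57.7 FPKM summed over 5 proliferation markers, against 5.07 and 8.29 FPKM in replicates 2 and 3 and 32.0 to 82.2 FPKM in proximal control libraries. Distal differentiation replicate 1 had the highest sum of the nuclear members, 10018 FPKM, against 7619 and 5848 FPKM in replicates 2 and 3. In bulk samples, a change in the number of cells of a type and a change in RNA per cell cannot be told apart.

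Of the tested nuclear genes of complexes II to V, 35 to 42 were called higher in differentiation than in control medium, depending on the colon region, and on the authors' scale none was called lower. Of 50 nuclear members, 44 passed the filter (3 or more libraries reaching 1 FPKM). The 44 include Cox5b-ps, named as a pseudogene of Cox5b and called higher in all 3 regions. In distal organoids 42 of these 44 were called higher and 0 lower (limma with Benjamini-Hochberg adjustment over all 12896 tested genes, adjusted p under 0.05), against 31.6% of all tested genes called higher and 31.3% lower. In mid organoids 35 were higher and 0 lower, against 31.5% higher and 32% lower among all genes, and in proximal organoids 40 were higher and 0 lower, against 27.6% and 26.2%. The median log2 fold change of the members, on the log2(FPKM + 1) scale that holds for all fold changes here, was 0.996 in distal, 0.70 in mid and 0.78 in proximal organoids, beside medians of 0.00, 0 and -0.01 over all tested genes. In all 3 regions 35 members were called higher, beside 20.1% of all tested genes. Another 5 were higher in 2 regions (Atp5b, Atp5e, Atp5mpl, Uqcr11 and Uqcrc1), Atp5g1 and Cox7a2l in 1, and Atp5g2 and Cox6b2 in none.

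The counts depended on how libraries were scaled. When FPKM were rescaled so that the recovered reads of every library sum to the same total, the median of all genes shifted to -0.34 in distal, -0.33 in mid and -0.25 in proximal organoids, and the members called higher numbered 31, 19 and 25, against 18.6%, 19.2% and 18.5% of all genes called higher and 47.3%, 46.6% and 40.1% lower. Relative to the median of all genes, the members' median was then 0.88, 0.60 and 0.72, against 0.99, 0.70 and 0.80 on the authors' scale. Under this scaling 2 members were called lower in mid (Atp5g2 and Atp5e) and 1 in distal organoids (Atp5g2). Without proximal differentiation replicate 1, proximal members called higher numbered 35, and without distal differentiation replicate 1 the distal count was 37. Without distal control replicate 3, Cox6b2 was called lower in distal organoids (-0.80 ± 0.32).

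**Figure D1:**
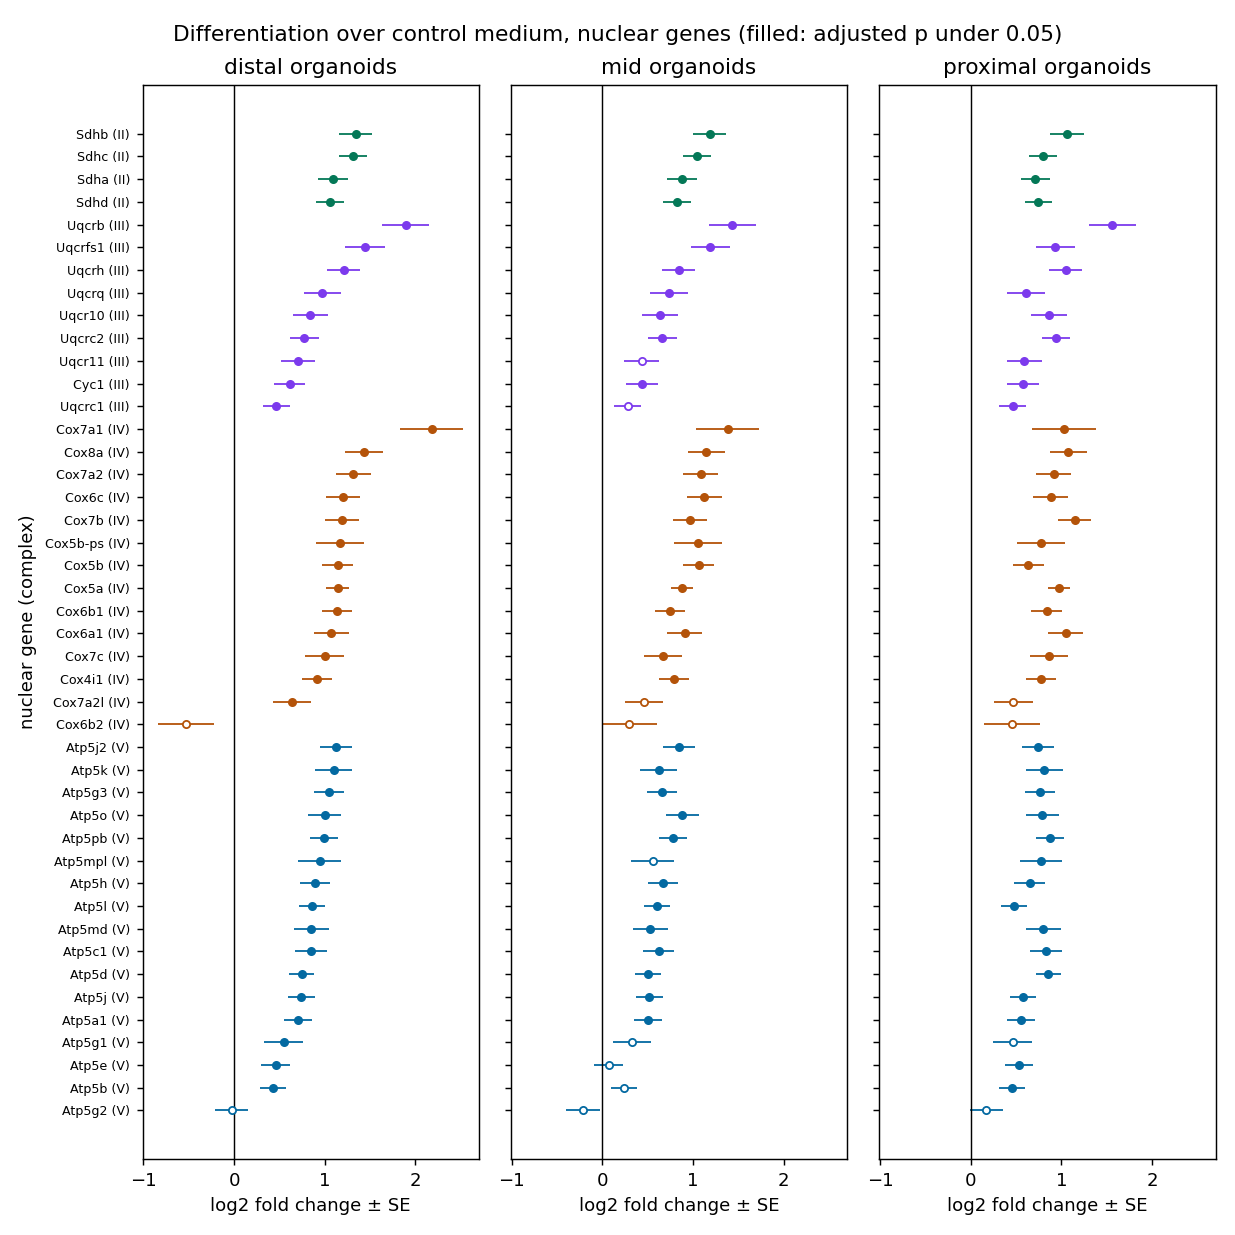
Fitted log2 fold change (differentiation over control medium, on the log2(FPKM + 1) scale) with its standard error for the 44 tested nuclear genes, in distal, mid and proximal organoids from left to right; colours mark the complex, filled points an adjusted p under 0.05. Nearly all points lie right of 0, with medians of 0.996, 0.70 and 0.78, and Atp5g2 and Cox6b2 are open in every panel.

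**Figure D2:**
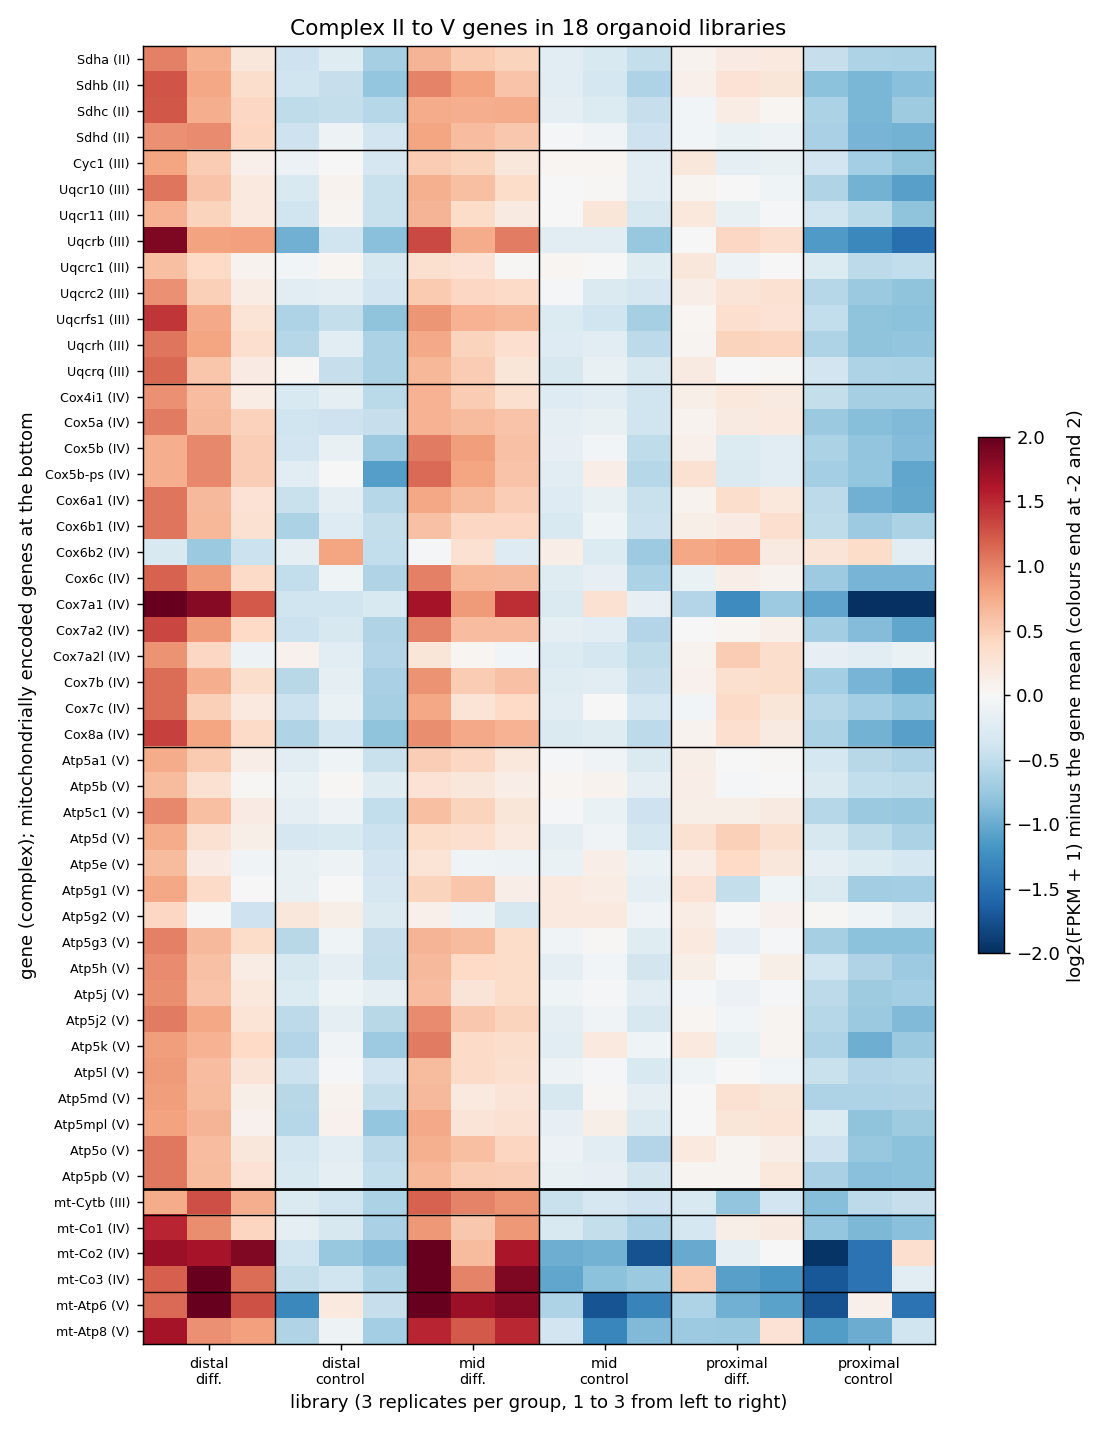
Expression of the 50 tested members (rows, by complex, mitochondrially encoded genes below the thick line) in 18 libraries (columns, 3 per group), as log2(FPKM + 1) minus the mean of each gene; red is above and blue below that mean. Differentiation columns are mostly red and control columns mostly blue, except in rows such as Atp5g2 and Cox6b2 and in most mitochondrial rows of proximal differentiation libraries. The mean log2(FPKM + 1) of the mitochondrial rows was 7.44 to 7.69 there, against 9.06 to 9.81 in mid and distal differentiation libraries.

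Complex II, which oxidises succinate in the citric acid cycle and passes the electrons to coenzyme Q, rose as a whole: all 4 genes (Sdha, the flavoprotein, Sdhb, the iron-sulfur subunit, and the membrane anchors Sdhc and Sdhd) were called higher in all 3 regions. The median log2 fold change was 1.20 in distal, 0.96 in mid and 0.77 in proximal organoids. Beside the counts of this and the other complexes, 31.6%, 31.5% and 27.6% of all tested genes were called higher in distal, mid and proximal organoids. Sdhb (chromosome 4, 140688514 to 140706504, mm39, plus strand) had 130.5, 93.2 and 69.5 FPKM in distal differentiation and 40.7, 39.0 and 31.3 FPKM in distal control libraries. It had 57.9, 66.0 and 63.7 FPKM in proximal differentiation and 30.1, 28.0 and 29.9 FPKM in proximal control libraries. The media did not overlap in either region. The fold change of Sdhb was 1.34 ± 0.18 (SE) in distal, 1.18 ± 0.18 in mid and 1.06 ± 0.18 in proximal organoids, with limma adjusted p of 2.1e-05, 5.7e-05 and 0.00025. Sdhd was the most abundant gene of the complex, with a mean of 188 FPKM over 18 libraries. It reached 327, 334 and 233 FPKM in distal differentiation and 129.9, 161 and 132 FPKM in distal control libraries, and it had the smallest distal response of the 4, at 1.06 ± 0.15 (limma adjusted p 2.8e-05).

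Complex III, which takes electrons from reduced coenzyme Q to cytochrome c, had all 9 nuclear genes called higher in distal and in proximal organoids and 7 of 9 in mid organoids. Uqcrb, a small subunit at the quinone site (chromosome 13, 67048681 to 67053442, mm39, minus strand), had the largest response of the complex. It had 248, 119 and 119 FPKM in distal differentiation libraries and 34.1, 50.8 and 37.3 FPKM in distal control libraries. In mid organoids it had 169, 114 and 137 FPKM in differentiation and 57.0, 57.7 and 39.2 FPKM in control libraries. Replicate 1 was the highest in both differentiation groups, and no differentiation library overlapped its controls. The log2 fold change of Uqcrb was 1.90 ± 0.26 in distal, 1.43 ± 0.26 in mid and 1.56 ± 0.26 in proximal organoids, with limma adjusted p of 2e-05, 0.00021 and 0.00018.

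Uqcrfs1, the Rieske iron-sulfur protein and the most abundant nuclear gene of complex III (mean 173 FPKM), had 417, 263 and 187 FPKM in distal differentiation and 101, 112 and 88.3 FPKM in distal control libraries, a log2 fold change of 1.45 ± 0.22 (limma adjusted p 4.3e-05). Uqcrc1, a core subunit, moved least. It had 84.0, 72.4 and 57.7 FPKM in distal differentiation and 52.6, 56.6 and 44.0 FPKM in distal control libraries, with a fold change of 0.47 ± 0.15 (limma adjusted p 0.013). These Uqcrc1 libraries were close to each other, and the call was lost on summed reads, where the fold change was 0.02. It was also lost without distal differentiation replicate 1 (0.34 ± 0.15) or distal control replicate 3 (0.36 ± 0.16), and in a fit of the distal groups alone (limma adjusted p 0.067). Cyc1 (cytochrome c1), Uqcrc2, Uqcrh, Uqcrq, Uqcr10 and Uqcr11 had distal fold changes between these extremes, 0.61 to 1.21.

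Complex IV (cytochrome c oxidase) reduces oxygen to water, and several of its nuclear subunits exist as ubiquitous and tissue-specific isoforms. Of its 19 nuclear genes, 14 were tested. Of these, 13 were called higher in distal and 12 each in mid and proximal organoids, with medians of 1.14, 0.94 and 0.87. The 14 include Cox5b-ps, named as a pseudogene of Cox5b, at 1.17 ± 0.26 in distal, 1.05 ± 0.26 in mid and 0.77 ± 0.26 in proximal organoids. Cox5b was at 1.14 ± 0.17, 1.06 ± 0.17 and 0.64 ± 0.17, and the 2 genes may share reads. Cox6a1, the ubiquitous subunit VIa, had the highest mean FPKM of the nuclear members of any complex (499.9 FPKM). It had 969.8, 723 and 565 FPKM in distal differentiation and 337, 407 and 309 FPKM in distal control libraries, with a fold change of 1.07 ± 0.19 (limma adjusted p 0.00019). Cox8a, the ubiquitous subunit VIII, had 1067, 708 and 538 FPKM in distal differentiation and 271, 322 and 236 FPKM in distal control libraries, and its fold change was 1.43 ± 0.21 (limma adjusted p 3.2e-05). Neither gene had a differentiation library within the range of its distal controls.

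The tissue isoforms of complex IV were close to absent apart from Cox7a1, beside means of 265 FPKM for Cox4i1, 260.3 for Cox6b1 and 108 for Cox7b, their ubiquitous counterparts. Cox4i2 (lung) had 18 reads in all 18 libraries together, Cox6a2 (heart and muscle) had 6, Cox8b (heart and muscle) had 4, and Cox8c and Cox7b2 (testis) had 0. With a second gene entry for Atp5o at 0 reads, these are the 6 nuclear members that did not pass the filter. Cox6b2, the testis isoform of subunit VIb, passed it at 397 reads in all. It had 0.651, 0.218 and 0.522 FPKM in distal differentiation, 0.8, 2.55 and 0.454 FPKM in distal control, 2.50, 2.59 and 1.32 FPKM in proximal differentiation and 1.45, 1.63 and 0.755 FPKM in proximal control libraries. Its medium response was not called in any region. Cox7a2l, a factor of supercomplex assembly related to subunit VIIa, was called higher in distal organoids alone at 0.64 ± 0.21 (limma adjusted p 0.015), with 0.46 ± 0.21 in mid and 0.47 ± 0.21 in proximal organoids. The distal call of Cox7a2l was lost without distal differentiation replicate 1 (0.40 ± 0.19) or distal control replicate 3 (0.47 ± 0.22), on summed reads (0.19 ± 0.18), and in a fit of the distal groups alone (limma adjusted p 0.11).

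Cox7a1, known as the heart and muscle isoform of subunit VIIa, had the largest medium response of the nuclear members in distal organoids, and the smallest adjusted p between distal and proximal organoids in either medium. It lies on chromosome 7 (29883569 to 29885503, mm39, plus strand), and Cox7a2, the ubiquitous isoform, on chromosome 9 (79662643 to 79667160, minus strand). Their promoter windows (250 bases before to 50 after the start) are shown because the pair encodes alternative forms of 1 subunit. They are from RefSeq on GRCm38.p6, at chr7:30183921-30184220 on the plus strand and chr9:79759804-79760103 on the minus strand, and capitals mark CCAAT boxes on either strand.
Cox7a1: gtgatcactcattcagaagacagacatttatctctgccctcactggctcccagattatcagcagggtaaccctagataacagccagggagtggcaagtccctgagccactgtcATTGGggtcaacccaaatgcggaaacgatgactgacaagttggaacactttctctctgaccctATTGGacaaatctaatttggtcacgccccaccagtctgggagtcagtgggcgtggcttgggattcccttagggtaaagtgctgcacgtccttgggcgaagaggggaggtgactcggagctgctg
Cox7a2: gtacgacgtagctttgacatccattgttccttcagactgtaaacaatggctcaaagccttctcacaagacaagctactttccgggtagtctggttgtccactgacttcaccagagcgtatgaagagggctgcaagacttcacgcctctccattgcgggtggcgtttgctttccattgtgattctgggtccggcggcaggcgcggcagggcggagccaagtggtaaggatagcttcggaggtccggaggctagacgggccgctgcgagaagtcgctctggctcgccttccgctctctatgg
Cox7a1 had 2 CCAAT boxes in its window, and the window of Cox7a2 held none of the 6 motifs searched.

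Cox7a1 had 41.2, 27.6 and 17.99 FPKM in distal differentiation and 5.15, 5.09 and 5.54 FPKM in distal control libraries. In mid organoids it had 24.6, 13.6 and 21.4 FPKM in differentiation and 5.58, 8.98 and 6.22 FPKM in control libraries. In proximal organoids it had 4.39, 2.39 and 3.90 FPKM in differentiation and 2.89, 1.04 and 0.335 FPKM in control libraries. The media did not overlap in distal or mid organoids, and proximal differentiation replicate 2 lay below the highest proximal control. The log2 fold change by medium was 2.18 ± 0.35 in distal and 1.38 ± 0.35 in mid organoids, with limma adjusted p of 7.6e-05 and 0.0029. In proximal organoids it was 1.03 ± 0.35 (limma adjusted p 0.022), and that call was lost on summed reads (0.84), with no filter on low values (adjusted p 0.053), in a fit of the proximal groups alone (adjusted p 0.085), and without proximal differentiation replicate 1 (0.89), differentiation replicate 3 (0.96), control replicate 2 (0.97) or control replicate 3 (0.67). Cox7a2 had fold changes of 1.31 ± 0.19 in distal, 1.09 ± 0.19 in mid and 0.92 ± 0.19 in proximal organoids. Between regions, Cox7a1 was higher in distal than in proximal organoids by 2.67 ± 0.35 in differentiation medium (limma adjusted p 3.6e-05). In control medium the difference was 1.51 ± 0.35 (limma adjusted p 0.010), lost without proximal control replicate 3 (1.15, adjusted p 0.064) and in a fit of those groups alone (adjusted p 0.074).

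As a share of Cox7a1 and Cox7a2 together, which does not depend on library scaling, Cox7a1 made up 11.3% ± 0.879 of the summed FPKM in distal differentiation and 2.84% ± 0.836 in proximal differentiation libraries (SD, n = 3). In control medium the shares were 5.81% ± 0.795 in distal and 2.01% ± 1.67 in proximal libraries. The level of these shares depends on the gene lengths used, 535 bases for Cox7a1 and 944 for Cox7a2. Over both media the share was 6.14 percentage points higher in distal than in proximal organoids (two-sided exact permutation test within medium, p = 0.005, the smallest that 400 arrangements allow). Every distal library was above every proximal library of its medium. Within 1 medium, 3 libraries against 3 cannot give a p below 0.1. The share test was added after the values were seen. Cox7a1 had been picked for its difference between distal and proximal organoids in these same libraries, so this p-value is no independent support for that difference.

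ATP synthase (complex V) had 17 of 18 nuclear genes tested. Of these, 16 were called higher in distal, 12 in mid and 15 in proximal organoids, with medians of 0.85, 0.55 and 0.74. Atp5a1, the catalytic-head subunit alpha and the most abundant (mean 432 FPKM), had 698, 598 and 456 FPKM in distal differentiation and 359, 395 and 306 FPKM in distal control libraries. Its fold change was 0.71 ± 0.16 in distal (limma adjusted p 0.001), 0.50 ± 0.16 in mid and 0.55 ± 0.16 in proximal organoids. On summed reads the values of Atp5a1 were 0.25, 0.07 and 0.23, and no region was called. In mid organoids the call was also lost without mid control replicate 3 (0.42 ± 0.18). Atp5j2, a membrane-sector subunit, had the largest distal response of complex V. It had 68.4, 56.9 and 39.7 FPKM in distal differentiation and 22.5, 28.4 and 21.99 FPKM in distal control libraries, a fold change of 1.12 ± 0.18 (limma adjusted p 6.5e-05). The inhibitor gene Atpif1, which is no member by name, had 109, 57.0 and 51.7 FPKM in distal differentiation and 40.9, 39.0 and 37.4 FPKM in distal control libraries. Its fold change was 0.80 ± 0.20 in distal, 0.70 ± 0.20 in mid and 0.94 ± 0.20 in proximal organoids (limma adjusted p 0.0025, 0.0062 and 0.001).

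The c subunit, which forms the rotating ring of ATP synthase, is encoded by Atp5g1, Atp5g2 and Atp5g3, and the mature protein is the same from all 3. They lie on chromosome 11 (95959678 to 95966496), chromosome 15 (102571299 to 102580787) and chromosome 2 (73738791 to 73741670), all on the minus strand of mm39. Their promoter windows are shown because the 3 genes responded unequally. They are from RefSeq on GRCm38.p6, at chr11:96075582-96075881, chr15:102670998-102671297 and chr2:73911277-73911576, all on the minus strand. Capitals mark matches, on either strand, to the NRF1 core, the ERR element TCAAGGTCA or the CCAAT box.
Atp5g1: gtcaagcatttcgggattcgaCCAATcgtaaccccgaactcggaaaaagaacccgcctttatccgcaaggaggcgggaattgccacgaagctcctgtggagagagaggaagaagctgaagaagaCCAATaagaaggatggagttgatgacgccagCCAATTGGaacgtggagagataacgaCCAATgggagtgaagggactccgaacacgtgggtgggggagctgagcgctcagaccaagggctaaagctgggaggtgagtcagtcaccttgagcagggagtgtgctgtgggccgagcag
Atp5g2: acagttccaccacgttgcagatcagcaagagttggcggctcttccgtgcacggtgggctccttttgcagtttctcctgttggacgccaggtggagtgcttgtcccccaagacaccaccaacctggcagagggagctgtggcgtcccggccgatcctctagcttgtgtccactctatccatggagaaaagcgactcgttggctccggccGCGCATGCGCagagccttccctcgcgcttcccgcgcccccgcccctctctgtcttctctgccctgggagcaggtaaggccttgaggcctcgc
Atp5g3: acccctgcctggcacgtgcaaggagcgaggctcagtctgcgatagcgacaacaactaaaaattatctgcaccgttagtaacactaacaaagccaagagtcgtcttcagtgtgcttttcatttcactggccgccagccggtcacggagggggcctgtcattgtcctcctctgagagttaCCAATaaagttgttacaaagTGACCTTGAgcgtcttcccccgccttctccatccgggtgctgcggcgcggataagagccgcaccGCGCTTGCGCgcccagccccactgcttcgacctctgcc
The Atp5g1 window held 5 CCAAT matches counted on both strands and no other motif. The Atp5g2 window held 1 NRF1 core, and that of Atp5g3 1 NRF1 core, 1 ERR element and 1 CCAAT box.

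Atp5g3 had 261, 203 and 168 FPKM in distal differentiation and 87.4, 122 and 94.1 FPKM in distal control libraries. Its fold change was 1.04 ± 0.16 in distal, 0.66 ± 0.16 in mid and 0.76 ± 0.16 in proximal organoids (limma adjusted p 6.8e-05, 0.0027 and 0.0013), and the mid call was lost on summed reads (0.23, adjusted p 0.26). The Atp5g3 libraries of the media did not overlap in distal organoids. Atp5g2 had 91.4, 67.8 and 50.9 FPKM in distal differentiation and 80.003, 74.2 and 56.0 FPKM in distal control libraries. In mid organoids it had 73.5, 63.4 and 54.6 FPKM in differentiation and 78.3, 78.8 and 64.7 FPKM in control libraries. Atp5g2 libraries of the media overlapped in distal and mid organoids. Its fold changes of -0.02 ± 0.18 in distal, -0.21 ± 0.18 in mid and 0.17 ± 0.18 in proximal organoids were not called. On summed reads they were -0.48, -0.64 and -0.15, with the distal and mid values called lower. Atp5g1, the least abundant of the 3 with a mean of 20.0 FPKM, was called in distal organoids alone, at 0.55 ± 0.21 (limma adjusted p 0.034). That call was lost without distal differentiation replicate 1 (0.35) or replicate 2 (0.55), without distal control replicate 1 (0.55) or replicate 3 (0.46), on summed reads (0.11), with no filter (adjusted p 0.074) and in a fit of the distal groups alone (adjusted p 0.067).

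The shares of the 3 genes in the summed c-subunit FPKM do not depend on library scaling. They do depend on the gene lengths used, 4912 bases for Atp5g1, 1675 for Atp5g2 and 2181 for Atp5g3. In reads over all libraries these genes had 29578, 35562 and 89082, so the level of each share is specific to FPKM. Atp5g2 held 22.7% ± 1.18 in distal differentiation and 37.3% ± 5.26 in distal control libraries (SD, n = 3). In mid organoids its share was 22.6% ± 1.14 in differentiation and 34.3% ± 0.57 in control libraries, and in proximal organoids 33.0% ± 2.17 and 42.0% ± 1.17. The share of Atp5g2 was lower in every differentiation library than in every control library of its region, by 11.8 percentage points over the 3 regions (two-sided exact permutation test within region, p = 0.00025, the smallest that 8000 arrangements allow). Within 1 region the smallest possible p is 0.1. Atp5g3 held 68.9% in distal differentiation and 53.6% in distal control libraries, 68.3% and 56.4% in mid, and 58.7% and 49.6% in proximal organoids. Atp5g1 stayed between 6.86% and 9.91% of the sum in all libraries. This test, too, was added after the values were seen. Atp5g2 had been picked for the smallest distal medium response of complex V in these same libraries, so the p-value is no independent support.

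**Figure D3:**
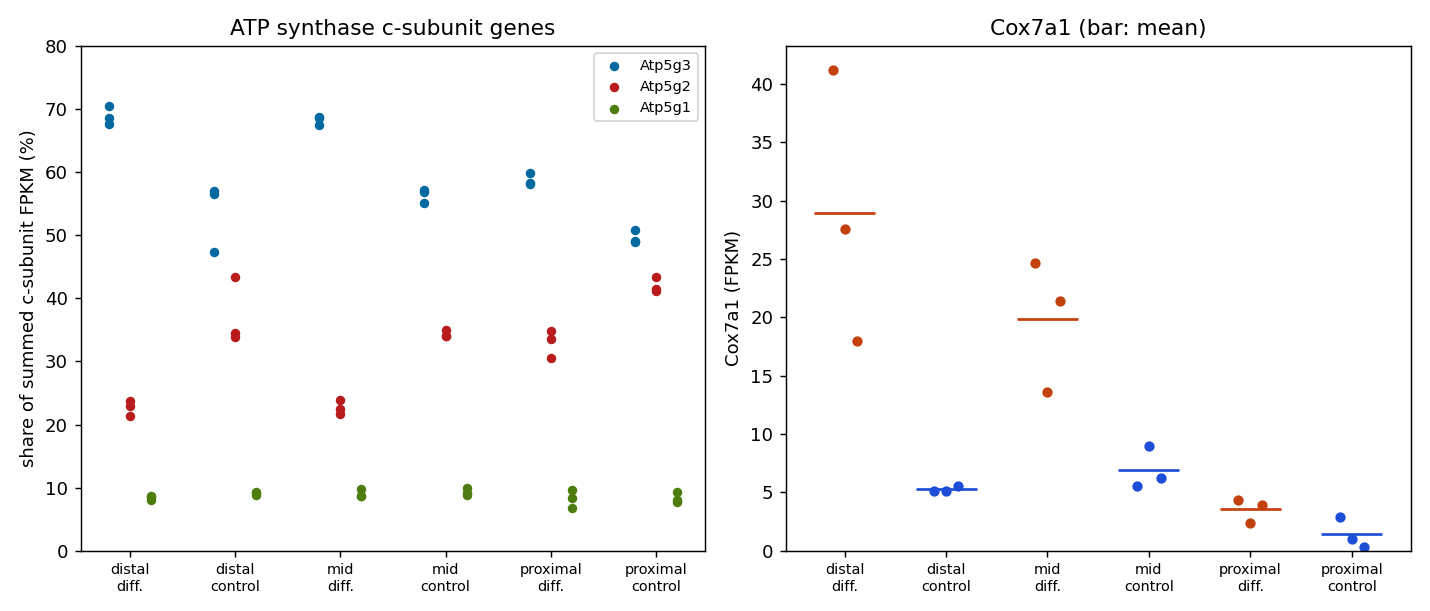
Left, share of each c-subunit gene (percent of the summed FPKM of Atp5g1, Atp5g2 and Atp5g3) in each of 3 libraries per group; right, Cox7a1 in FPKM, with orange points for differentiation and blue points for control libraries and bars at the group mean. The Atp5g2 share is lower in every differentiation group than in its control group, and Cox7a1 is highest in distal differentiation libraries at 41.2, 27.6 and 17.99 FPKM.

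All 6 mitochondrially encoded members were called higher in differentiation medium in distal (median 1.77) and in mid organoids (median 2.38), and 1 of 6, mt-Co1, in proximal organoids (median 0.50). Among all tested genes, 31.6% were called higher in distal, 31.5% in mid and 27.6% in proximal organoids. They encode cytochrome b of complex III (mt-Cytb), the 3 core subunits of complex IV (mt-Co1, mt-Co2 and mt-Co3) and the subunits a and A6L of ATP synthase (mt-Atp6 and mt-Atp8). The libraries were poly-A selected. Their levels spanned mean FPKM of 12494 for mt-Co1, 3278 for mt-Cytb, 268 for mt-Co2, 207 for mt-Atp6, 128 for mt-Co3 and 6.11 for mt-Atp8, which rests on 350 reads in all.

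mt-Co1 had 31672, 20959 and 14840.4 FPKM in distal differentiation and 9611, 8803 and 7074 FPKM in distal control libraries. In mid organoids it had 20202, 15981 and 20183 FPKM in differentiation and 8977, 7901 and 7005 FPKM in control libraries. In proximal organoids it had 8647, 11933 and 12528 FPKM in differentiation and 6480.4, 5923 and 6174 FPKM in control libraries. The media did not overlap in any region, and the lowest proximal differentiation value was replicate 1. The fold change of mt-Co1 was 1.35 ± 0.27 in distal, 1.24 ± 0.27 in mid and 0.82 ± 0.27 in proximal organoids (limma adjusted p 0.00051, 0.00097 and 0.019). The proximal call was lost on summed reads (0.49, adjusted p 0.066), with no filter on low values (adjusted p 0.81) and in a fit of the proximal groups alone (adjusted p 0.078). It was also lost without proximal control replicate 2 (0.78) or replicate 3 (0.81), or without proximal differentiation replicate 2 (0.75) or replicate 3 (0.71).

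mt-Cytb had 4798, 7046 and 4738 FPKM in distal differentiation and 2357, 2173 and 1861 FPKM in distal control libraries, and 6514, 5696 and 5359.8 FPKM in mid differentiation and 2113, 2287 and 2167 FPKM in mid control libraries. In proximal organoids it had 2329.6, 1665 and 2212 FPKM in differentiation and 1596, 2003 and 2083 FPKM in control libraries. The media were apart in distal and mid organoids and overlapped in proximal ones. The fold change of mt-Cytb was 1.36 ± 0.20 in distal, 1.42 ± 0.20 in mid and 0.12 ± 0.20 in proximal organoids (limma adjusted p 3.4e-05, 2.1e-05 and 0.63), and the proximal value was -0.20 on summed reads. The response was larger in distal than in proximal organoids by 1.23 ± 0.28 (limma interaction term, adjusted p 0.014), beside 4.16% of all tested genes with a larger and 4.09% with a smaller distal response. mt-Cytb is the 1 member called in that comparison, and 2 members were called without proximal differentiation replicate 1 or replicate 3. The call of mt-Cytb was lost with no filter on low values (adjusted p 0.41) and in a fit of the 4 distal and proximal groups alone (adjusted p 0.071).

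**Figure D4:**
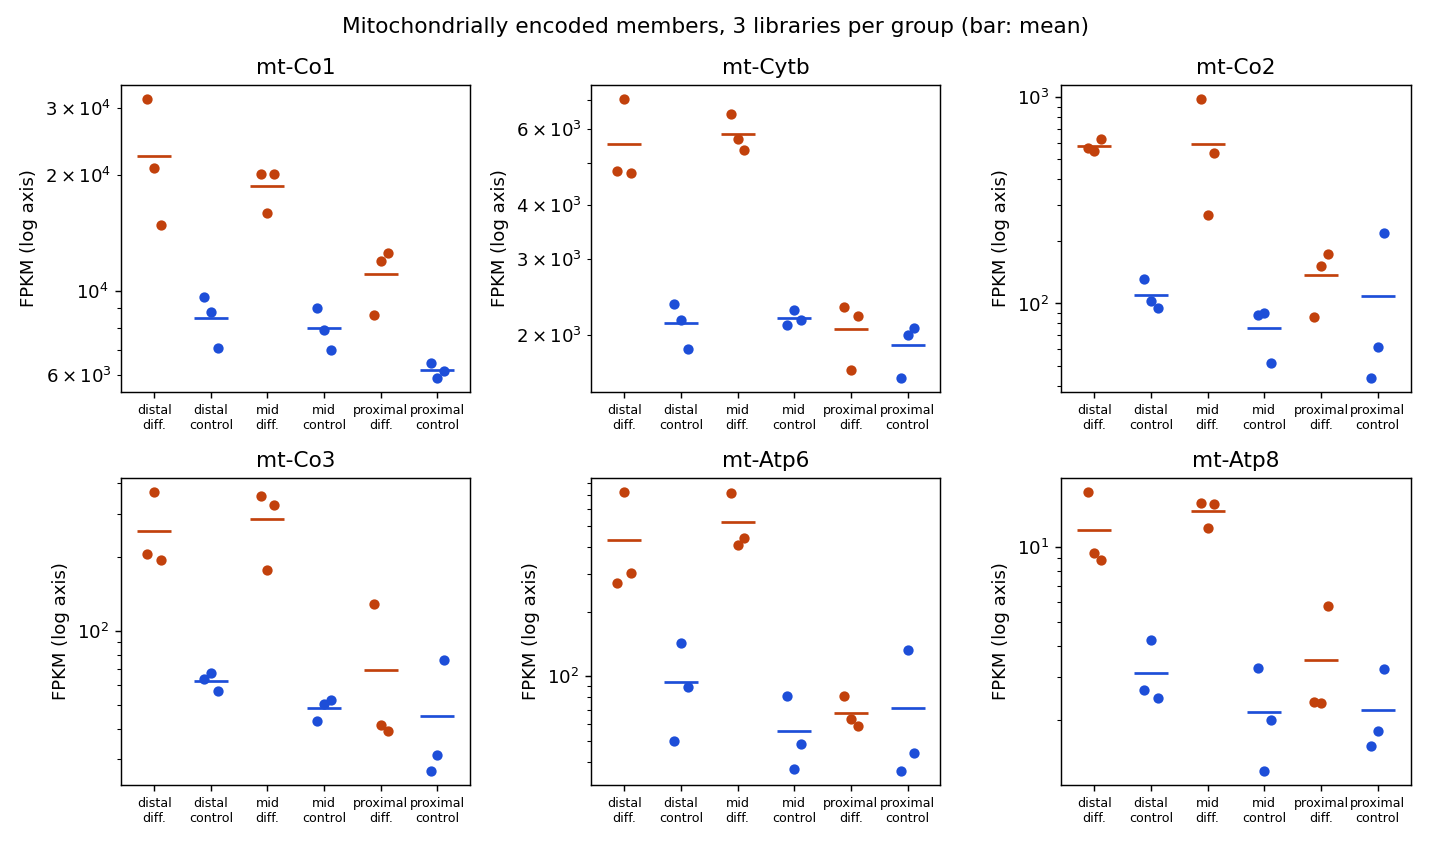
FPKM on a log axis of the 6 mitochondrially encoded members in each library (orange, differentiation; blue, control; bar, group mean), with distal, mid and proximal groups from left to right. Differentiation libraries lie above controls in distal and mid organoids, whereas the proximal groups overlap for every gene but mt-Co1.

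Of the other 4 genes, mt-Atp6 had 273, 723 and 302 FPKM in distal differentiation and 49.97, 143 and 89.5 FPKM in distal control libraries. In mid organoids it had 716, 411 and 441 FPKM in differentiation and 80.9, 36.8 and 48.6 FPKM in control libraries, and in proximal organoids 80.9, 63.5 and 58.6 FPKM and 36.3, 133 and 44.1 FPKM. Its proximal values overlapped, and its fold change was 2.17 ± 0.49 in distal, 3.24 ± 0.49 in mid and 0.16 ± 0.49 in proximal organoids (limma adjusted p 0.0014, 4.6e-05 and 0.81). Proximal mt-Atp6 was at -0.16 on summed reads, and at -0.19 and -0.06 without proximal control replicate 1 or replicate 3. mt-Co2 had fold changes of 2.41 ± 0.51 in distal and 2.80 ± 0.51 in mid organoids, mt-Co3 of 1.95 ± 0.44 and 2.48 ± 0.44, and mt-Atp8 of 1.60 ± 0.31 and 2.28 ± 0.31. In proximal organoids these 3 genes were at 0.64 ± 0.51, 0.55 ± 0.44 and 0.44 ± 0.31 and were not called. When the 3 regional responses were compared jointly by the moderated F test of limma, 3 of the 6 were called, namely mt-Cytb, mt-Atp6 and mt-Atp8 (limma adjusted p 0.010, 0.026 and 0.035), beside 9.59% of all tested genes. That count was 1 without mid differentiation replicate 1, mid control replicate 2, proximal differentiation replicate 2 or proximal control replicate 2, and 0 with no filter on low values.

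Within a library, the ratio of 2 mitochondrial genes does not depend on scaling. mt-Cytb over mt-Co1 was 0.269 ± 0.102 in distal differentiation and 0.252 ± 0.00983 in distal control libraries, 0.315 ± 0.0459 and 0.278 ± 0.0383 in mid, and 0.195 ± 0.0669 and 0.307 ± 0.0528 in proximal organoids (SD, n = 3). mt-Atp6 over mt-Co1 was 0.0277 ± 0.00703 in mid differentiation and 0.00687 ± 0.00217 in mid control libraries, with no overlap. It was 0.0212 ± 0.0130 in distal differentiation and 0.0114 ± 0.00564 in distal control libraries, and 0.00645 ± 0.00253 in proximal differentiation and 0.0117 ± 0.00934 in proximal control libraries. The media overlapped in distal and proximal organoids.

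The values of mt-Co2, mt-Co3 and mt-Atp6 are uncertain because chromosome 1 holds near-identical copies. The table lists 7 unprocessed pseudogenes between 24650616 and 24655278 (mm39, minus strand). On the transcripts of GENCODE M21 (GRCm38), Gm10925 matched 678 of 678 aligned bases of mt-Atp6, Gm28437 783 of 783 of mt-Co3, Gm28661 681 of 681 of mt-Co2 and Gm29216 482 of 483 of mt-Co1, which covers bases 1063 to 1545 of that gene. Stretches of 60 bases are shown because they show what a short read can tell apart, with the differing base in capitals.
mt-Atp6: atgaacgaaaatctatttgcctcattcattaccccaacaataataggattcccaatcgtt
Gm10925: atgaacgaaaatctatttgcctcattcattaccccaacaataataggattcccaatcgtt
mt-Co1: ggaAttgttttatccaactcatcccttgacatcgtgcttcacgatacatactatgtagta
Gm29216: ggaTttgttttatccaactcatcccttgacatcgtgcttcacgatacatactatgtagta
The 7 copies held 19.2% to 31.8% of the reads of the copies plus mt-Co2, mt-Co3, mt-Atp6 and mt-Atp8 in distal differentiation and 34.6% to 46.1% in distal control libraries. In mid organoids these shares were 19.3% to 38.0% in differentiation and 37.8% to 65.3% in control libraries, and in proximal organoids 29.7% to 36.2% and 28.4% to 46.2%. The 7 copies include Gm29216, which matched mt-Co1, a gene left out of that sum. Gm29216 was at 140.8 ± 176.8 FPKM (SD) in mid control libraries. They also include Gm10222, Gm28438 and Gm28439, for which no match is given here. These shares therefore do not measure the reads that mt-Co2, mt-Co3 and mt-Atp6 share with their own copies. mt-Atp8 shares 43 bases with mt-Atp6 on the same strand.

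In differentiation medium, distal against proximal, 23 of 44 nuclear members were called higher, 1 lower and 20 in neither direction, against 15.6% higher and 14.3% lower among all genes, with a median of 0.50 beside 0 over all genes. All 4 genes of complex II, 3 of 9 of complex III, 8 of 14 of complex IV and 8 of 17 of complex V were called higher. The count was 12 without distal differentiation replicate 1, 13 without replicate 2 and 37 without replicate 3, and 15 and 13 without proximal differentiation replicates 2 and 3. It was 17 without proximal differentiation replicate 1, the library that stood apart, and 15 on summed reads, against 11.1% of all genes. In a fit of the distal and proximal differentiation groups alone, 6 were called higher. After Cox7a1, the smallest adjusted p were those of Sdhd, Cox5b and Sdhc.

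Sdhd had 327, 334 and 233 FPKM in distal and 166, 159 and 162 FPKM in proximal differentiation libraries, a difference of 0.85 ± 0.15 (limma adjusted p 0.00055). Cox5b, a peripheral subunit of complex IV, had 106, 125 and 90.5 FPKM in distal and 68.7, 52.9 and 55.3 FPKM in proximal differentiation libraries (0.85 ± 0.17, limma adjusted p 0.0017). Neither gene overlapped between regions. Reads of Cox5b may be shared with Cox5b-ps, a member by name on chromosome 13 that the table lists as protein-coding, so both are uncertain. Sdhc had 126, 88.3 and 70.9 FPKM in distal and 51.0, 58.7 and 54.4 FPKM in proximal differentiation libraries (0.75 ± 0.15, limma adjusted p 0.0018), and its call was lost in the fit of those groups alone (adjusted p 0.064). The member called lower was Cox6b2, at -1.08 ± 0.31 (limma adjusted p 0.015), a gene near the filter. It was not called without distal or proximal differentiation replicate 2.

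In differentiation medium 17 nuclear members of mid organoids were higher than in proximal ones and 0 lower, against 15.6% higher and 13.7% lower among all genes, with a median of 0.43. The count was 6 without mid differentiation replicate 1 and 11 without proximal differentiation replicate 2, 14 without proximal differentiation replicate 1, and 11 on summed reads. All 6 mitochondrially encoded members were called higher in distal and in mid than in proximal differentiation libraries, beside 15.6% of all tested genes in either comparison. Their medians were 1.78 and 1.89. Without proximal differentiation replicate 1, 5 of 6 were called in each comparison.

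In control medium, distal against proximal, 4 nuclear members were called higher and 0 lower, against 5.57% higher and 4.98% lower among all genes, with a median of 0.31 beside 0.02 over all genes. They were Cox7a1, Sdhd, Cox5a and Uqcr10. Sdhd had 129.9, 161 and 132 FPKM in distal and 109.9, 90.4 and 89.9 FPKM in proximal control libraries, a difference of 0.54 ± 0.15 (limma adjusted p 0.032). Cox5a, a peripheral subunit of complex IV, had 42.1, 41.4 and 40.1 FPKM in distal and 32.8, 30.2 and 29.7 FPKM in proximal control libraries, and Uqcr10, a small subunit of complex III, had 94.4, 124 and 85.6 FPKM and 77.3, 60.8 and 54.6 FPKM. None of the 3 genes overlapped between regions. Cox5a differed by 0.40 ± 0.12 and Uqcr10 by 0.65 ± 0.20, with limma adjusted p of 0.046 and 0.049. Leaving out 1 library moved this count between 0 (without proximal control replicate 3) and 7 (without distal differentiation replicate 1 or 3). It was 1 without proximal control replicate 2 or distal control replicate 2. It was 2 without mid control replicate 1 or 2, any of the 3 mid differentiation libraries, distal control replicate 1, distal differentiation replicate 2, or proximal differentiation replicate 2 or 3. On summed reads it was 7, against 5.9% of all genes, and in the fit of those groups alone 2. Cox5a and Uqcr10 lost their calls in most of these fits. Mid against proximal, 11 were higher and 0 lower, against 7.99% higher and 5.28% lower, with a median of 0.49. It was 24 in a fit of those groups alone and 13 on summed reads, where the corresponding counts in differentiation medium were 21 and 11. The difference between media in these counts was not tested. The count was 3 without mid control replicate 2 or proximal control replicate 2 or 3, 4 without mid control replicate 1, and 21 and 19 without distal differentiation replicate 1 or 3. None of the 6 mitochondrially encoded members was called in either control comparison (limma; 0 at an unadjusted p under 0.05, and 0 with limma-voom on recovered reads). Their medians were 0.41 distal against proximal and 0.09 mid against proximal.

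The medium response of the nuclear members was not shown to differ between distal and proximal organoids. The interaction term called 0 of 44 (limma, 3 at an unadjusted p under 0.05, and 0 with limma-voom), with a median difference of 0.17. Among all tested genes, 4.16% were called with a larger and 4.09% with a smaller distal response. At an unadjusted p under 0.05 there were 2962 of 12896. The F test over the 3 regions called 0 (0 at an unadjusted p under 0.05, and 0 with limma-voom). Over all tested genes it called 9.59%, with 3073 of 12896 at an unadjusted p under 0.05. The smallest p of the interaction belonged to Sdhc (0.52 ± 0.22, limma adjusted p 0.17), Cox7a1 (1.15 ± 0.49, 0.18), Cox6b2 (-0.99 ± 0.43, 0.19) and Cox5b (0.51 ± 0.25, 0.23). Without distal differentiation replicate 3 the interaction called 1 member. These comparisons share libraries with those of each medium.

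As a share of all recovered reads, the nuclear members together made up 1.16% ± 0.174 in distal differentiation and 0.875% ± 0.123 in distal control libraries, 1.08% ± 0.118 and 0.936% ± 0.0942 in mid, and 0.926% ± 0.0902 and 0.708% ± 0.0762 in proximal libraries (SD, n = 3). Distal and mid shares overlapped between media, whereas every proximal differentiation library was above every proximal control. The mitochondrially encoded members made up 3.52% ± 0.743 in distal differentiation and 1.85% ± 0.292 in distal control libraries, 3.13% ± 0.309 and 1.72% ± 0.189 in mid, and 1.83% ± 0.152 and 1.39% ± 0.0326 in proximal libraries, with no overlap between media in any region. mt-Co1 and mt-Cytb held most of these reads, with 5545064 and 1106449 over all libraries.

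**Figure D5:**
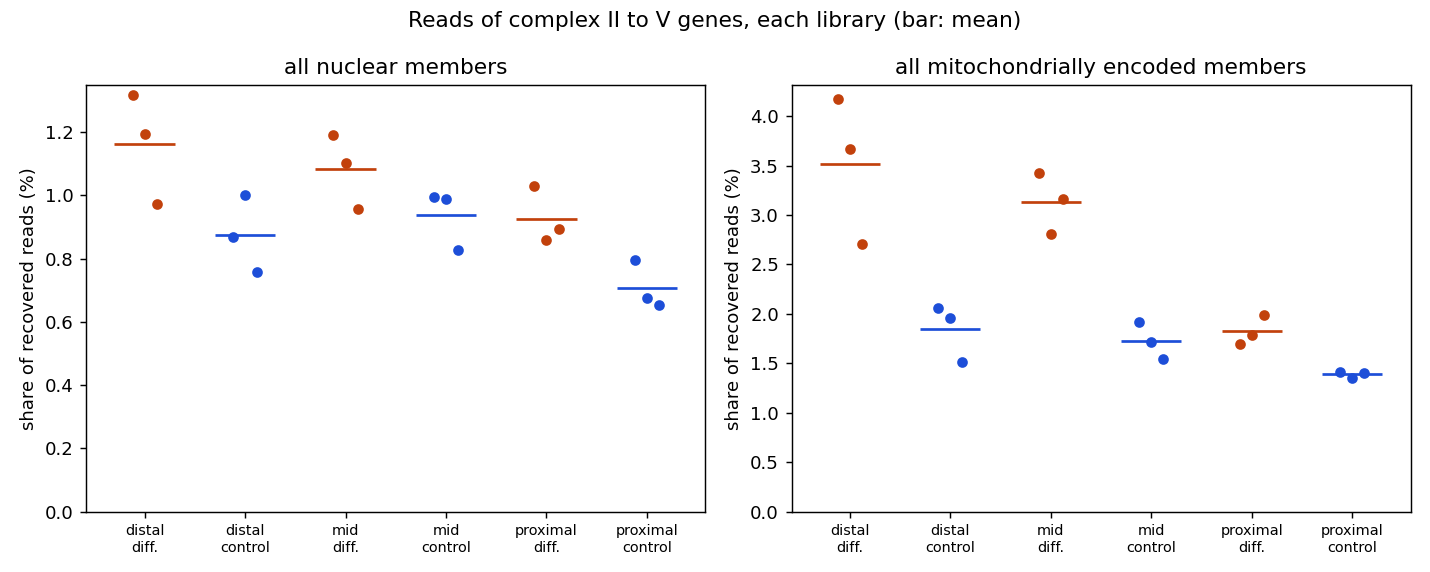
Share of all recovered reads (percent) held by the nuclear members (left) and the mitochondrially encoded members (right) in each library; orange points are differentiation and blue points control libraries, bars the group mean. Mitochondrial shares lie at 2.71% to 4.17% in distal differentiation and 1.52% to 2.06% in distal control libraries, whereas nuclear shares of the media overlap in distal and mid organoids.

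Across the 18 libraries most nuclear members followed their common mean closely. The Pearson correlation of the centred log2(FPKM + 1) of a member with the mean of the nuclear members, to which it contributes, was highest for Atp5h at 0.995 and Atp5pb at 0.993, and lowest for Cox7a2l at 0.711, Atp5g2 at 0.261 and Cox6b2 at -0.09. Among genes outside the list, the most alike were Ndufb9 at 0.991 and Ndufb10 at 0.986 (complex I subunits), Cycs at 0.986 (somatic cytochrome c), Gm10221 at 0.983 and Ndufv3 at 0.983 (complex I). These values are a description over 18 libraries that share group, library scaling and depth.

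Other genes of the pathway included members called lower. Of 45 tested genes named Nduf (complex I), 32 were called higher and 3 lower in distal, 25 and 3 in mid and 23 and 2 in proximal organoids. Their medians were 0.64, 0.41 and 0.41. Names that start with Nduf include complex I subunits and also its assembly factors (Ndufaf). The member rule leaves out such factors for complexes II to V, so the sets are unlike. Of 13 citric acid cycle genes, 10, 8 and 8 were higher and 0 lower. Among them Cs (citrate synthase) had a fold change of 1.59 ± 0.22 and Ogdh (a subunit of oxoglutarate dehydrogenase) of 1.22 ± 0.12 in distal organoids. Of 13 genes for cytochrome c and coenzyme Q, 7, 6 and 5 were higher and 4, 4 and 2 lower. Cycs rose by 1.31 ± 0.19 and Coq10a by 1.17 ± 0.17, whereas Coq2, an early enzyme of coenzyme Q synthesis, fell by 0.65 ± 0.10 in distal organoids.

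Genes that assemble the complexes or express mitochondrial DNA were called in both directions. Of 35 assembly factors of complexes II to V, 12, 13 and 12 were higher and 6 in each region lower, with medians of 0.24, 0.23 and 0.11. Coa5, Cox14 and Surf1, all complex IV factors, rose by 0.50 ± 0.08, 1.02 ± 0.17 and 0.91 ± 0.15 in distal organoids. Of 18 genes for the copying, transcription and processing of mitochondrial DNA, 2 in each region were higher and 11, 11 and 8 lower, with medians of -0.61, -0.48 and -0.41. Twnk, the mitochondrial DNA helicase, fell by 1.20 ± 0.18 in distal organoids, whereas Mterf2 and Polg2, the accessory subunit of the mitochondrial polymerase, rose by 1.43 ± 0.17 and 1.11 ± 0.17. Of 77 mitochondrial ribosomal protein genes, 9, 3 and 6 were higher and 35, 39 and 24 lower. Of 16 regulators of mitochondrial genes, 9 in each region were higher and 2, 3 and 2 lower. Esrra (the nuclear receptor ERR alpha) rose by 1.29 ± 0.12, Hif1a by 1.48 ± 0.15 and Ppard by 0.80 ± 0.08 in distal organoids. The 2 called lower in distal organoids, named after their values were seen, were Myc (-3.09 ± 0.38) and Pprc1, a coactivator related to PGC-1 (-2.34 ± 0.33). All these calls are limma calls at an adjusted p under 0.05, read beside 31.6%, 31.5% and 27.6% of all genes higher and 31.3%, 32% and 26.2% lower.

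RefSeq promoter windows matched 36 of the 50 nuclear members, in 39 windows. The NRF1 core stood in 25.6% of these windows and in 4.60% of 32851 windows of all genes, the ETS core CCGGAAG in 33.3% and 8.86%, and the ERR element TCAAGGTCA in 5.13% and 0.423%. The YY1 core AAGATGGC stood in 7.69% and 2.75%, CCAAT in 53.8% and 37.4%, and TATAAA in 10.3% and 13.6%. For ERR, YY1 and TATAAA the member percentages rest on only 2, 3 and 4 of the 39 windows. Both strands were searched, and no motif searched contains another. Among other members described, the Sdhb window held 1 ETS core and 1 CCAAT box, and the Uqcrfs1 window none of the 6 motifs. These matches are a description of the letters in these windows.

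Some members share their position with other genes, and the labels do not say whether reads were assigned by strand. Opposite-strand genes overlap Cox6c (Vps13b, with reads equal to 62.6% of those of Cox6c), Atp5j (Gabpa, 47.1%), Atp5md (Taf5, 12.4%) and Atp5pb (Wdr77, 8.28%). Pseudogenes named after nuclear members, 12 in all, held 530 reads, or 0.0185% of the reads of these members. That sum leaves out Cox5b-ps, which counts as a member here and held 4203 reads. It also leaves out the processed pseudogene Gm12854, which overlaps Uqcrh on the opposite strand. Gm12854 held 2554 reads, equal to 5.39% of those of Uqcrh.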

How the data were processed

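Poly-A RNA of 18 mouse colon organoid libraries was sequenced, with 3 libraries in each of 6 groups of region and medium. The deposited table holds FPKM per gene, which the authors computed, and whole counts were not used as deposited. Per the submitters' processing notes the tools were HISAT2 2.0.5 and featureCounts 1.5.0-p3 on mm39. The annotation release, the library scaling behind the FPKM and the strand setting are not given in the sources used here. Multiplying FPKM by gene length gave whole reads (tolerance 0.001), from which depth and read shares were taken. Recovered reads were 0.831 to 1.32 times the library size that divides these FPKM. Value columns of no sample in the labels numbered 0, and 6 group mean columns of the authors were not used.

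Values were log2(FPKM + 1). The 12896 genes that reached 1 FPKM in 3 or more libraries entered 1 limma fit (limma 3.58.1 in R 4.3.3, moderated with a trend) with 6 group means, with Benjamini-Hochberg adjustment over all tested genes in each comparison and a threshold of 0.05. Summaries used Python 3.11.15 and pandas 2.3.3. The fit was tested on simulated data. The labels do not say what replicate numbers share. In the data, same-numbered distal libraries of the 2 media deviated together (correlations of 0.118 to 0.223, 6 of 6 libraries closest to their own number), and 42 nuclear members were called higher there with the replicate block as without it. Alternatives were scaling on summed reads, summed nuclear reads or median ratios, a pseudocount of 0.1, no filter, a filter of 5 FPKM, limma-voom on recovered reads, a fit of only the groups compared, a replicate block, and leaving out each library in turn. The median-ratio factors were 0.985 to 0.998, so that setting is nearly the authors' own scale and a weak check on it.

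Members and gene lists were chosen with earlier results of these data known. Values are given for the most abundant member and the members with the largest and smallest distal medium response in each complex, all mitochondrially encoded members, the 4 smallest adjusted p between distal and proximal organoids, isoform families, up to 3 genes of each list (1 that the rule names is not reported here), and the 5 genes most like the members' mean. Most and least abundant refer to mean FPKM, which depends on the gene length used. Those lengths were 702 bases for Cox6a1, 3135 for Atp5a1 and 4237 for Atp5b. In reads over all libraries, Atp5b (463331) and Atp5a1 (404732) exceeded Cox6a1 (102447). Promoter sequences are from RefSeq on GRCm38.p6, whose coordinates differ from mm39.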

Additional observations from a re-analysis of the deposited data

Results flagged for a closer look

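The medium response of mt-Cytb, the cytochrome b gene of complex III, differed between distal and proximal organoids in a test of the difference itself (limma interaction term, adjusted p 0.0136). Log2 fold changes of mt-Cytb were 1.36 ± 0.20 in distal and 0.12 ± 0.20 in proximal organoids. In the limma F test over the 3 regions, the response also differed for mt-Cytb (adjusted p 0.0104), mt-Atp6 (adjusted p 0.0255) and mt-Atp8 (adjusted p 0.0345). Responses of mt-Atp6 were 2.17, 3.24 and 0.16 in distal, mid and proximal organoids, and those of mt-Atp8 were 1.60, 2.28 and 0.44. The values of mt-Atp6, and of mt-Co3 named below, are uncertain because chromosome 1 holds copies identical to them over the aligned bases. mt-Atp8 rests on 350 reads in all. The mt-Cytb interaction was lost with no filter on low values (adjusted p 0.41) and in a fit of the 4 groups alone (adjusted p 0.071). The 3 F test calls became 1 without mid differentiation replicate 1, mid control replicate 2, proximal differentiation replicate 2 or proximal control replicate 2, and 0 with no filter. Without proximal differentiation replicate 1, which had 57.7 FPKM summed over proliferation markers, 3 members were called in the F test and 2 in the interaction, namely mt-Cytb (1.33 ± 0.30) and mt-Co3 (1.95 ± 0.52).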

How the results depend on the processing

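Over the settings tried, 2610 of the values of named genes kept their direction and call, 103 lost and 22 gained a call, and 15 changed sign, none of these called. The named genes are those picked by rule, and Atp5e, which changed sign with a call, is not among them. For each count below the cause was not tested. On summed reads, nuclear members called higher by medium were 25 in proximal and 19 in mid organoids, with 2 lower in mid and 1 lower in distal. Between regions they were 15 (distal) and 11 (mid) in differentiation medium and 7 (distal) in control medium, and 0 mitochondrially encoded members were called in proximal organoids. On summed nuclear reads the counts were 26 and 20, with 2 and 1 lower, 15 and 7 between distal and proximal organoids, and 0 mitochondrial. With median ratios the distal control count was 2. With no filter the distal counts were 13 in differentiation and 1 in control medium, and mitochondrial counts in the proximal, interaction and F tests were 0. With a filter of 5 FPKM, 0 were lower in distal differentiation organoids. Fits of only the groups compared gave 6 and 2 for distal, 24 for mid control, and 0 and 0 for mitochondrial members in the proximal and interaction tests (not run for the F test, which uses all groups).

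With the replicate block the control counts were 7 (distal) and 23 (mid), and the other counts stayed within 1.5 times. Same-numbered libraries of the 2 media correlated at 0.0429 to 0.259 in mid and 0.0335 to 0.170 in proximal organoids, and 5 and 4 of 6 libraries correlated best with their own number. In control medium the range was -0.231 to 0.330 between distal and proximal and -0.0122 to 0.371 between mid and proximal libraries. Not every pair in these comparisons exceeded 0.1, a cutoff set here, and the main fit has no block. All same-numbered pairs of the 2 media correlated positively, and what these libraries share is not known.

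Leaving out 1 library gave 37 to 42 nuclear members higher in distal (0 to 1 lower), 31 to 37 in mid and 33 to 41 in proximal organoids by medium. Between regions it gave 12 to 37 (0 to 1 lower) and 6 to 23 in differentiation medium, 0 to 7 and 3 to 21 in control medium, and 0 to 1 in the interaction. Mitochondrial counts were 0 to 1 in proximal organoids, 1 to 2 in the interaction and 1 to 3 in the F test.

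Signs changed on summed reads and summed nuclear reads for Uqcrc1 in mid (-0.15, -0.12), Atp5g2 in proximal (-0.15, -0.14), Atp5g1 in mid (-0.091, -0.062), mt-Atp6 in proximal (-0.16, -0.15) and mt-Cytb in proximal organoids (-0.20, -0.19). Atp5e, outside the tally of named genes, changed sign in mid organoids and was called lower on both of these scales. It was at 0.07 ± 0.16 on the authors' scale, -0.36 ± 0.13 on summed reads and -0.33 ± 0.13 on summed nuclear reads (limma adjusted p 0.72, 0.027 and 0.044). Leaving out 1 library, distal Atp5g2 ranged over -0.23 to 0.18 and proximal mt-Atp6 over -0.19 to 0.73. Low counts limit mt-Atp8, Cox6b2 and Cox7a1.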
